A study of Homo sapiens with 24 samples.

Results

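Dox1000 and Dox500 are doxorubicin-resistant lines grown out of Ramos, a human Burkitt's lymphoma (B cell) line, and the comparison set the 4 Dox1000 arrays against the 4 Dox500 arrays, 8 of the 24 arrays of the series. Dox500 grew in 500 nM doxorubicin and Dox1000 in 1000 nM. Both came from 1 stepwise lineage that ran from Ramos, which had no drug, through Dox100 and Dox250 to Dox500, and from there through Dox750 to Dox1000, each line kept in the concentration of its name. Doxorubicin is an anthracycline that intercalates into DNA and traps topoisomerase II, and ABCB1 (P-glycoprotein) is the membrane pump best known for exporting it. The pair was chosen because the drug concentration went from 500 to 1000 nM while the ABCB1 transcript did not rise with it, so it asks what else differed between the lines.

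Each line was 1 culture split into 4 cultures before RNA was made, so the 4 replicates are technical, the p-values measure the spread between split cultures, and neither line was derived more than once. The line, its drug concentration and its longer selection cannot be told apart, and no slide or scan batch was named for the arrays, so a batch and a line cannot be told apart either. A probe entered if either line had 3 or more of its 4 arrays with a detection p-value under 0.01, which kept 14847 of 47323 probes (31.4%) and 9129 named genes. At the edge of that rule, the 796 probes detected on exactly 3 arrays in their better line had a median log2 level of 5.59 and the 1055 probes on exactly 2, which stayed out, 5.37. All levels below are log2 of background-corrected, quantile-normalized bead intensity, each read from the gene's brightest probe, and each change is Dox1000 minus Dox500 on that log2 scale with its standard error (SE) and n = 4 arrays per line. The SE takes its spread from the arrays of all 6 lines.

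As background, 4 gene programmes recur below. In the integrated stress response, kinases that sense amino acid shortage, unfolded protein, haem lack or viral RNA phosphorylate eIF2, general translation drops, and ATF4 with its partners turns on genes for amino acid supply, feedback and, when stress lasts, cell death. Interferon-stimulated genes answer type I and II interferon through STAT and IRF factors, while ribosome biogenesis genes and cytosolic heat shock proteins serve the making of ribosomes and the folding of new protein.

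Markers of B cells and of other cell types were read first. Of the 30 B cell genes on the array, 24 were detected on all 4 arrays of each line, and PAX5, CD24, BANK1, RAG1 and RAG2 were undetected on all 8 arrays. MS4A1 (CD20) changed by 0.02, CD79A by 0.04 (its 2 other probes by -0.04 and -0.23) and CD79B by -0.17, and none of these passed. Defining T cell genes (CD3D, CD3G, CD2), myeloid genes (LYZ, CSF1R, MPO) and epithelial or stromal genes (EPCAM, KRT8, COL1A1) were undetected on all 8 arrays, but other markers were measured. Of 18 myeloid markers on the array, 5 were measured: CST3 (cystatin C, made by many cell types) rose by 1.29 and AIF1 by 0.43, ITGAM was undetected in Dox500 and at least 1.12-fold higher, FCGR3A was undetected in Dox1000 and at least 1.33-fold lower, and CD68 (-0.24) did not pass. The mean log2 level of these 5 was 6.33 to 6.67 on the Dox500 arrays and 6.76 to 6.99 on the Dox1000 arrays, without overlap, and their summed linear signal was 568 to 710.4 and 686 to 807, with overlap. Of 15 epithelial or stromal markers 3 were measured, with DCN (decorin) up by 0.97 while VIM (-0.04) and PECAM1 (0.20) did not pass. Their mean level was 7.02 to 7.36 in Dox500 and 7.52 to 7.62 in Dox1000, and their summed signal 487 to 614 and 631 to 670.3, both without overlap. Of 23 T and NK cell markers 6 were measured, with IL7R up by 0.72 (detected on 1 of 4 Dox500 arrays) and CD247 down by 0.71, and the summed signal of 884 to 976 in Dox500 overlapped that of 954 to 1070.3 in Dox1000. The part of these markers in the results was not tested. The number of detected probes ran from 14588 to 14925 on the Dox500 arrays and from 15015 to 15564 on the Dox1000 arrays without overlap, and its part in the results was not tested.

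The ABCB1 transcript was high in both lines. Since the pair was chosen for its similar level, its values are a description and not a test. It stood at 11.27, 11.34, 11.30 and 11.34 on the Dox500 arrays and at 11.45, 11.27, 11.50 and 11.22 on the Dox1000 arrays. The 2 groups overlapped fully. Its mean was 0.04 ± 0.16 (SE) higher in Dox1000, and its second probe was 0.02 higher. That SE draws on all 6 lines, among them Dox100, where the ABCB1 arrays ran from 4.73 to 5.72. In the other lines ABCB1 averaged 4.70 in Ramos, 5.01 in Dox100, 9.59 in Dox250 and 11.22 in Dox750, so the level of Dox500 was already that of the later lines.

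Its neighbour on chromosome 7, ABCB4, a close relative that moves phosphatidylcholine into bile in liver, did rise. ABCB4 measured 6.76, 7.12, 7.11 and 6.97 in Dox500 and 8.78, 8.86, 8.90 and 8.58 in Dox1000, every Dox1000 array lying above every Dox500 array. The change was 1.79 ± 0.13 (adjusted p = 4.3e-10). Dox500 had the lowest ABCB4 mean of the resistant lines at 6.99, against 7.94 in Dox100, 7.42 in Dox250 and 7.83 in Dox750, while Ramos stood at 5.53. ABCB4 was read from a single probe. In RNA from a whole culture, more cells with a transcript and more of it per cell cannot be told apart, here and in all results below.

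**Figure D1:**
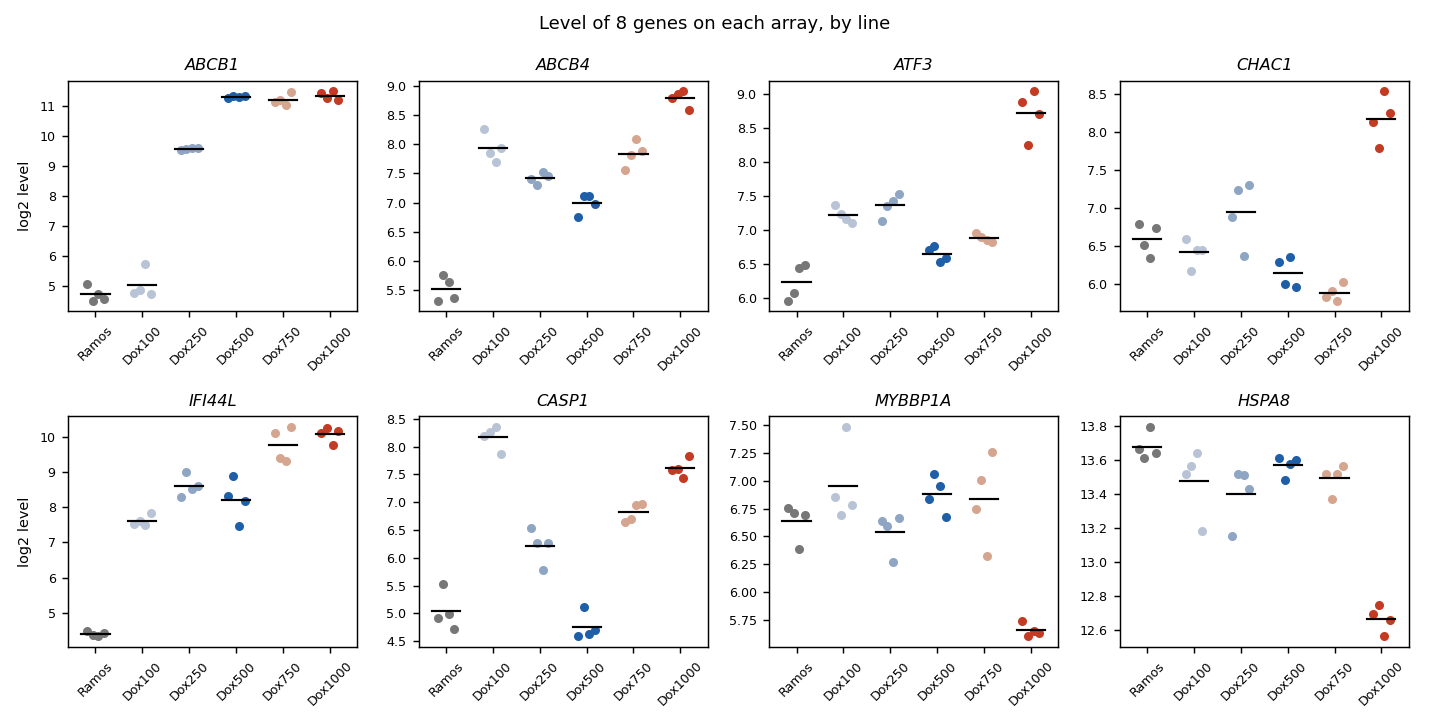
Log2 level of 8 genes (vertical axis, a separate scale per panel) on each of the 4 arrays of the 6 lines (points), with the line mean as a bar. ABCB1 is level between Dox500 (blue, mean 11.31) and Dox1000 (red, mean 11.36), ABCB4, ATF3, CHAC1, IFI44L and CASP1 are higher in Dox1000, and MYBBP1A and HSPA8 are lower.

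Across all genes, 3330 of 9129 passed (36.5%, limma with Benjamini-Hochberg adjustment, adjusted p under 0.05), which is the background for every count below. Of these, 1583 rose (17.3%) and 1747 fell (19.1%), where rose means higher in Dox1000 and fell means lower, both only for genes that passed. The median change over all genes was -0.02. With median scaling it was 0.02, and 1625 genes rose and 1249 fell, so which side was larger depends on the normalization. Large changes went mostly one way: 161 genes rose at least 2-fold (1.76%) and 15 fell at least 2-fold (0.164%). Over all genes, 16.6% had every Dox1000 array higher and 18.2% had every one lower. The 2-fold genes were picked on these same arrays, so their lack of overlap is a description and not a test. Of them, all 161 that rose and 14 of the 15 that fell had groups that did not overlap. The exception was SNAR-A1, a small non-coding RNA of a family of near-identical copies that a probe may not separate, whose change was -1.79 ± 0.41 with Dox500 arrays between 6.20 and 8.83 and detection on 2 of 4 Dox1000 arrays. Fold sizes depend on the background correction: with none, all 35 genes past 2-fold rose, although 3427 genes passed.

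Of the genes with the highest changes, CASP1 and IL1B belong to 1 pathway. CASP1, the protease that activates interleukin-1 beta, was undetected on all 4 Dox500 arrays at 4.59, 5.12, 4.62 and 4.70 and detected on all 4 Dox1000 arrays at 7.59, 7.59, 7.44 and 7.83. That made it at least 4.02-fold higher in Dox1000 (adjusted p = 3.5e-11), and its second probe was undetected on the same 4 arrays. CASP1 had averaged 8.17 in Dox100, 6.21 in Dox250 and 6.82 in Dox750, so Dox500 was the one resistant line in which it was undetected. IL1B, which encodes interleukin-1 beta itself, measured 6.63, 6.74, 6.59 and 6.61 in Dox500 and 8.37, 8.57, 8.62 and 8.68 in Dox1000. Its groups stood well apart, with a change of 1.91 ± 0.11 (adjusted p = 1.3e-11).

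Other genes among the 15 highest belonged to varied families. CHI3L2, a chitinase-like secreted protein, was at least 4.22-fold higher, and HBE1, the embryonic beta-type globin, at least 2.52-fold higher, both undetected on every Dox500 array. KYNU, a tryptophan-breakdown enzyme, was at least 2.24-fold higher and SPINK13 at least 2.61-fold. PLAAT4 (an interferon- and retinoid-responsive phospholipase) rose by 2.18, RAI14 by 2.14, MYL2 (a cardiac myosin light chain) by 2.0 and PPM1M (a protein phosphatase) by 1.92. ODAD3, a cilium protein, rose by 2.16, though 1 of 4 Dox500 arrays detected it. FEZ1, an axonal transport adaptor, gets no fold: its brightest probe passed but was undetected on all Dox500 arrays, and its other probe changed by -0.16.

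Among the 15 lowest genes without overlap, GPRIN1, a neurite growth protein, had the lowest change, at 7.07, 7.26, 7.66 and 7.35 in Dox500 and 5.53, 6.06, 6.13 and 5.57 in Dox1000. Every Dox1000 array lay below every Dox500 array, and the change was -1.51 ± 0.13 (adjusted p = 1.2e-08). TRMT61A, the catalytic part of a tRNA methyltransferase, fell by 1.28 ± 0.11. POLR2L, a subunit shared by the 3 nuclear RNA polymerases, fell by 1.21 ± 0.13, and POP1, a protein of the RNase P and MRP complexes, fell by 1.13 ± 0.10. PPARGC1B, a coactivator of mitochondrial genes, fell by 1.12, and CLUH, which binds mRNAs of mitochondrial proteins, fell by 1.02. SPR (sepiapterin reductase) fell by 0.99.

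Genes of the integrated stress response rose together. Of 18 measured members, 15 rose and 0 fell, with a median change of 0.90 against -0.02 over all genes, beside 17.3% of all genes that rose (median 0.81 with the 1 undetected member at its bound). The mean level of the list was 9.02, 8.89, 8.93 and 8.90 on the Dox500 arrays and 9.93, 9.66, 9.97 and 9.84 on the Dox1000 arrays. The groups stood apart, and Dox1000 replicate 2 was the lowest of its line. No other line reached that level, the means being 9.15 in Ramos, 8.92 in Dox100, 9.08 in Dox250, 8.94 in Dox500 and 8.81 in Dox750 against 9.85 in Dox1000.

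Among the factors, ATF3, a stress-induced transcription factor, measured 6.71, 6.76, 6.54 and 6.59 in Dox500 and 8.87, 8.25, 9.03 and 8.70 in Dox1000. The lowest Dox1000 array was well above the highest Dox500 array, and the change was 2.07 ± 0.13 (adjusted p = 1.2e-10). It was 1.27 without background correction. DDIT3 (CHOP), the factor tied to cell death under lasting stress, rose by 1.19 ± 0.11, from a mean of 8.39 to 9.58. CEBPB, a partner of ATF4, rose by 1.04 ± 0.08. ATF4 itself rose by 0.43 ± 0.07 on its brightest probe, and its 2 other probes changed by -0.05 and 0.87, so they disagree in sign. All 6 measured transcription factors of the list rose, with ATF5 and CEBPG the remaining ones. The 3 measured eIF2 kinases of the list did not pass: EIF2AK3 (PERK) changed by -0.18, EIF2AK4 (GCN2) by -0.04 and EIF2AK1 (HRI) by 0.03. The dimmer EIF2AK1 probe passed at -0.31. The kinase that senses viral RNA, EIF2AK2 (PKR), was not among these 3.

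Effectors of the response rose as well. CHAC1, which degrades glutathione, measured 6.29, 6.01, 6.36 and 5.96 in Dox500 and 8.13, 7.79, 8.53 and 8.24 in Dox1000. Its arrays did not overlap, and the change was 2.02 ± 0.17 (adjusted p = 8.7e-09). STC2, a secreted glycoprotein, rose by 1.81 ± 0.11, DDIT4, which restrains mTORC1, by 1.73 ± 0.17, and CTH, which makes cysteine, by 1.69 ± 0.15. VLDLR, a lipoprotein receptor, was undetected in all other lines by the probe read and at least 1.68-fold higher in Dox1000 than in Dox500. SESN2, another brake on mTORC1, rose by 0.95, and the feedback pseudokinase TRIB3 by 0.86. INHBE, an activin-type hormone subunit outside the list, measured 9.03, 9.10, 9.14 and 8.90 in Dox500 and 11.43, 10.90, 11.44 and 11.45 in Dox1000, a change of 2.26 ± 0.11 with no overlap.

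A composite element read by C/EBP and ATF proteins can be searched for in promoters, so the promoters of the members that held it are shown. The window ran from 250 bases before to 50 bases after each RefSeq start (GRCh38.p14, strand of the gene), and the letters searched were TGATGNAA on both strands. Of the 17 list members with a promoter entry, 2 held it, ATF3 and CHAC1 (11.8%, against 3.67% of all 27305 promoters and 1.76% of those of the genes tested). ATF3 (chr1:212565157-212565456, plus strand) and CHAC1 (chr15:40953221-40953520, plus strand) each had 1 match, in capitals, starting 191 and 209 bases before the start, and 0 of them overlapped another motif searched.
ATF3: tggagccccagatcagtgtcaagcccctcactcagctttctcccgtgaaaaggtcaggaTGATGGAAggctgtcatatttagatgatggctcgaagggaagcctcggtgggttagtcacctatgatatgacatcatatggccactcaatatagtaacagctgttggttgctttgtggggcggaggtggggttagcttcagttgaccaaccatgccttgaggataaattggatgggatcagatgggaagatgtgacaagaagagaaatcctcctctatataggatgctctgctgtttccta
CHAC1: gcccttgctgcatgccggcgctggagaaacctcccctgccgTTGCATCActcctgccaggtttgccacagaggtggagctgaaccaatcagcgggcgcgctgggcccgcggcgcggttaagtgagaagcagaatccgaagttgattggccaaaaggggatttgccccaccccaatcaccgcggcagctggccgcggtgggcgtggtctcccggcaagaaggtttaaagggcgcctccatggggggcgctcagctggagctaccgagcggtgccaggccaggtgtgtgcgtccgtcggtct

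Genes that supply amino acids split. Of 14 measured genes of serine, asparagine and proline synthesis, 7 rose (50%, against 17.3% of all genes) and 4 fell (28.6%, against 19.1%). MTHFD2, a mitochondrial folate enzyme, rose by 0.87, PSAT1, of serine synthesis, by 0.83, and ASNS (asparagine synthetase) by 0.63, whereas PYCR3, a proline enzyme, fell by 0.77. Aminoacyl-tRNA synthetases were counted by compartment, a difference that was not tested: 9 of 18 cytosolic ones rose and 2 fell, with WARS1 up by 1.03, AARS1 by 0.76 and SARS1 by 0.69. Of 15 mitochondrial ones, 0 rose and 6 fell, MARS2 by 0.55, EARS2 by 0.54 and LARS2 by 0.46. Of 14 amino acid transporters, 2 rose (14.3%, against 17.3% of all genes) and 4 fell (28.6%, against 19.1%). With median scaling 1 rose and 2 fell. SLC6A9, the glycine carrier, had the largest rise at 1.02.

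Most measured interferon-stimulated genes rose. Of 26 measured, 21 rose and 0 fell, with a median change of 0.73. The mean level of the list was 7.96, 8.12, 7.68 and 7.97 on the Dox500 arrays and 8.68, 8.84, 8.68 and 8.86 on the Dox1000 arrays. These groups did not overlap, although Dox500 replicate 3 was low. Dox500 had the lowest list mean of the resistant lines, at 7.93, against 8.34 in Dox100, 8.27 in Dox250, 8.89 in Dox750 and 8.77 in Dox1000, and Ramos stood at 6.88.

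IFI44L, an interferon-induced gene, measured 8.32, 8.90, 7.46 and 8.19 in Dox500 and 10.13, 10.24, 9.78 and 10.16 in Dox1000. Its Dox500 arrays spread over more than a unit but stayed below all Dox1000 arrays, and the change was 1.86 ± 0.23 (adjusted p = 2.2e-06). IFIT3, which binds with IFIT1 to foreign RNA, was undetected on every Dox500 array and at least 2.16-fold higher in Dox1000. IFIT2 rose by 1.8 ± 0.16, IFIT1 by 1.51 ± 0.19, IFI6 by 1.64 ± 0.10 and EPSTI1 by 1.61 ± 0.14. The antiviral GTPase MX1 rose by 1.01 and the oligoadenylate synthetase OAS3 by 0.90. IFITM3 (-0.27) and LY6E (-0.18) were the members with values below 0, and neither passed.

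Genes that sense RNA or relay interferon moved less uniformly, 9 of 22 rising and 2 falling with a median change of 0.21. DHX58 (LGP2), an RNA sensor of the RIG-I family, rose by 1.25 (detected on 1 of 4 Dox500 arrays), and IRF7, the factor that amplifies type I interferon, by 1.09 ± 0.12. TLR7, an endosomal RNA receptor, rose by 0.92 and IFIH1 (MDA5) by 0.73. MAVS, the adaptor through which RIG-I and MDA5 signal, fell by 0.54, and TLR9, the DNA receptor, by 0.40. The 2 measured interferon alpha receptor chains gave 0.50 for IFNAR2, which passed (its other probe -0.24), and 0.14 for IFNAR1, which did not.

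The interferon-stimulated response element was searched as GAAANNGAAA on both strands of the same promoter window. It was found in 15 of the 19 list members with an entry (78.9%), against 3.65% of all promoters and 2.96% of those of the genes tested. The list was made of interferon-stimulated genes, so this share describes the list and not the comparison of the lines. IFI44L (chr1:78620198-78620497, plus strand) and IFIT3 (chr10:89327747-89328046, plus strand) are shown, the first as the holder with the largest measured change and the second as the holder that was undetected in Dox500. Each held 2 matches, the first 164 and 156 bases before the start, and 0 overlapped another motif searched.
IFI44L: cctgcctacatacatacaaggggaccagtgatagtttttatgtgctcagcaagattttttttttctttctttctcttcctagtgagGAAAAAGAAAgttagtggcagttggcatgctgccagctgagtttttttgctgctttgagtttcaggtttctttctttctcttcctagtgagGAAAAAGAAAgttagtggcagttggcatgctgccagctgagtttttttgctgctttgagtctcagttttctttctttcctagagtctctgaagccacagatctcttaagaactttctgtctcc
IFIT3: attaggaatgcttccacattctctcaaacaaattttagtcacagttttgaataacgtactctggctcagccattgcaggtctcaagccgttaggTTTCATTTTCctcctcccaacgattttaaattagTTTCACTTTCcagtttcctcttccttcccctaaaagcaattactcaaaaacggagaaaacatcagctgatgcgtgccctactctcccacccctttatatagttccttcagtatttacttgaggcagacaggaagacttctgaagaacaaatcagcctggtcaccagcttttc

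**Figure D2:**
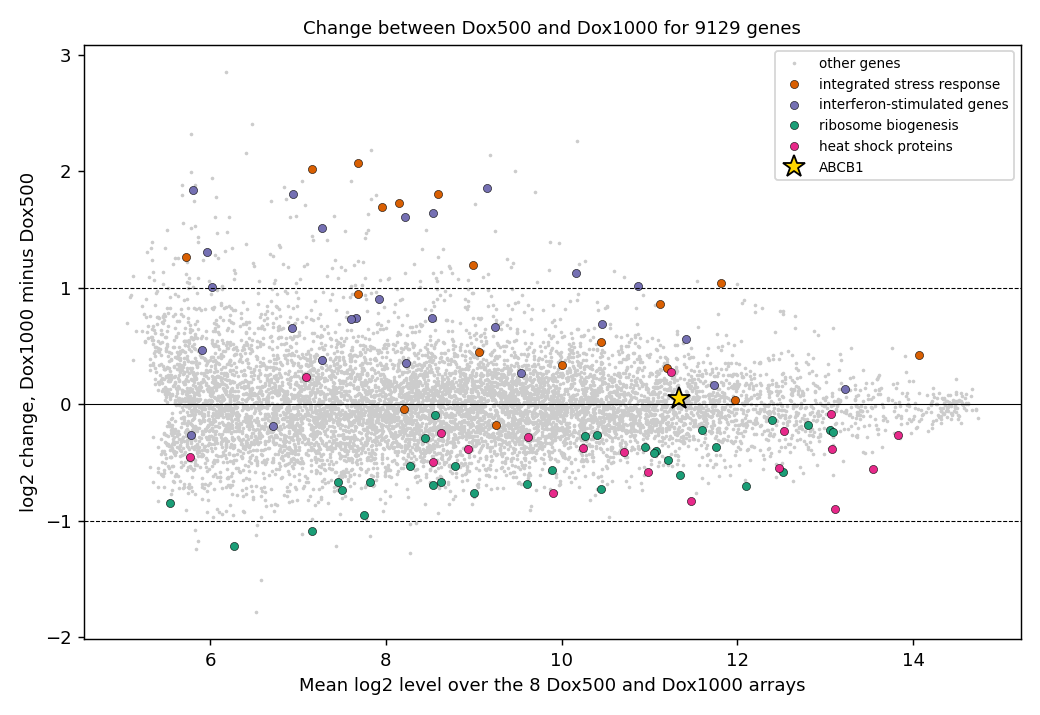
Log2 change, Dox1000 minus Dox500 (vertical axis), against the mean log2 level over the 8 arrays (horizontal axis) for 9129 genes, with 4 lists coloured, ABCB1 as a star and dashed lines at 2-fold. Integrated stress response and interferon-stimulated members lie mostly above 0, ribosome biogenesis and heat shock members mostly below it, and the widest changes are upward.

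Inflammatory and antigen presentation genes were also higher. Of 20 NF-kB targets and subunits, 13 rose and 1 fell (median 0.43). Their list mean was lowest in Dox500 among the resistant lines, at 7.99, against 8.34 in Dox250, 8.17 in Dox750 and 8.40 in Dox1000. The Dox100 mean lay above that of Dox1000, with arrays that overlapped, and the Ramos mean lay below that of Dox500. CCR7, a homing receptor, and NFKBIZ, an atypical I-kappa-B protein, were undetected in Dox500 and at least 1.47-fold and 1.57-fold higher. CFLAR (c-FLIP), an inhibitor of caspase-8, rose by 0.81 and lymphotoxin alpha (LTA) by 0.65 ± 0.13, while RELA, the main activating subunit, fell by 0.39. Among 20 cytokines, chemokines and receptors, 10 rose and 1 fell, with IL10RB at 1.09 and IL21R at 0.99.

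Of 19 genes of MHC class I and its peptide supply, 12 rose and 1 fell (median 0.31). HLA-E, the ligand of the NKG2A receptor, measured 9.76, 9.61, 9.86 and 9.70 in Dox500 and 10.59, 10.64, 10.69 and 10.58 in Dox1000, with no overlap and a change of 0.89 ± 0.07. The peptide transporter chain TAP1 rose by 0.83, whereas TAP2 changed by -0.03 and did not pass. In MHC class II, 11 of 15 measured genes rose and 0 fell (median 0.36), including all 6 measured DR, DP and DQ chains. The class II list mean was also lower in Dox500 (9.70) than in any other resistant line. It was 10.13 in Dox100, 9.98 in Dox250, 9.92 in Dox750 and 10.09 in Dox1000, and 9.64 in Ramos. HLA-DOB, a chain of the class II peptide-loading regulator, rose by 1.22 ± 0.10. CIITA, the master regulator of class II transcription, read -0.40 and did not pass (adjusted p = 0.066, detected on 1 of 4 Dox1000 arrays).

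Ribosome biogenesis genes fell as a group. Of 32 measured, 27 fell and 0 rose, with a median change of -0.55, beside 19.1% of all genes that fell (median -0.53 with the 1 undetected member at its bound). The list mean was 10.07, 10.12, 10.15 and 10.14 on the Dox500 arrays and 9.55, 9.56, 9.61 and 9.62 on the Dox1000 arrays. These levels were far apart relative to the spread within each line. The other lines stood near Dox500, with means of 10.00 in Ramos, 10.02 in Dox100, 9.98 in Dox250 and 10.05 in Dox750, so Dox1000 had the lowest level of the 6 at 9.58.

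MYBBP1A, a nucleolar protein that restrains and supports rRNA synthesis, measured 6.84, 7.06, 6.95 and 6.67 in Dox500 and 5.74, 5.61, 5.65 and 5.64 in Dox1000. Every Dox1000 array lay below every Dox500 array, and the change was -1.22 ± 0.17 (adjusted p = 7.8e-06). POLR1B, the second-largest subunit of RNA polymerase I, fell by 1.09 ± 0.12, RRP9, a U3 snoRNP protein, by 0.95 ± 0.10, and UTP20, of the small-subunit processome, was undetected in Dox1000 and at least 1.38-fold lower. NOP2, an rRNA methyltransferase, fell by 0.70, and UBTF, the polymerase I initiation factor, by 0.66. Of the core snoRNP proteins, NOP56 fell by 0.22, while FBL (-0.14) and NHP2 (-0.18) did not pass.

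Ribosomal protein genes did not follow. Of 64 measured, 7 rose, 3 fell and 54 did neither, with a median change of 0.01. The exception in size was RPL37, at 7.89, 7.91, 8.39 and 8.03 in Dox500 and 9.42, 9.37, 9.04 and 8.92 in Dox1000, a change of 1.13 ± 0.13 from 1 probe. The next largest were RPL14 at 0.50 and RPL28 at 0.49. MYC, a known driver of ribosome biogenesis that Burkitt's lymphoma overexpresses, measured 12.53, 12.35, 12.36 and 12.42 in Dox500 and 12.31, 12.45, 12.29 and 12.07 in Dox1000. The groups overlapped, and the change of -0.13 ± 0.08 did not pass (adjusted p = 0.23). Of 23 genes of the MYC network, 8 fell (34.8%, against 19.1% of all genes) and 2 rose (8.7%, against 17.3%). TFAP4 fell by 0.72 and the polyamine enzyme ODC1 by 0.52.

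The E-box CACGTG, read by MYC and other basic helix-loop-helix factors, was found in 10 of the 27 ribosome biogenesis members with a promoter entry (37.0%), against 7.43% of all promoters and 10.9% of those of the genes tested. The letters read the same on both strands. RRP9 (chr3:51941855-51942154, minus strand) is shown since its match lies 5 bases before the start, and 0 other motifs overlapped it.
RRP9: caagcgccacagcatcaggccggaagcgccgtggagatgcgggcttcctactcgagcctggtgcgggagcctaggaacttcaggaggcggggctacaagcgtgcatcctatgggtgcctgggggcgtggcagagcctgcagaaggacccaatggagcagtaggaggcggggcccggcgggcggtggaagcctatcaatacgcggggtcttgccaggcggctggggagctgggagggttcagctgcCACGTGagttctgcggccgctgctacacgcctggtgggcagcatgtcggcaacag

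Cytosolic heat shock proteins fell alongside. Of 19 measured heat shock and co-chaperone genes, 13 fell and 1 rose, with a median change of -0.39. The list mean was 10.93, 10.96, 11.02 and 10.96 in Dox500 and 10.51, 10.60, 10.57 and 10.66 in Dox1000, without overlap. HSPA8 (HSC70), the constitutive chaperone, measured 13.61, 13.48, 13.58 and 13.60 in Dox500 and 12.69, 12.75, 12.56 and 12.66 in Dox1000. All its Dox1000 arrays were lower, by -0.90 ± 0.09 (adjusted p = 1.3e-07), and HSPA8 averaged between 13.40 and 13.68 in Ramos, Dox100, Dox250 and Dox750. STIP1 (HOP), which links HSP70 to HSP90, fell by 0.83, the inducible HSPA1B, which a probe may not separate from its near-identical copy HSPA1A, by 0.76 and HSP90AA1 by 0.55. HSPB1 (HSP27) was the one that rose, by 0.28.

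A heat shock element, written as GAANNTTCNNGAA and searched on both strands, was in 4 of the 18 members with a promoter entry (22.2%), against 0.487% of all promoters and 0.28% of those of the genes tested. HSPA8 (chr11:123062087-123062386, minus strand), the member with the largest fall, held 2 matches, the first 230 bases before the start, and 0 overlapped another motif searched.
HSPA8: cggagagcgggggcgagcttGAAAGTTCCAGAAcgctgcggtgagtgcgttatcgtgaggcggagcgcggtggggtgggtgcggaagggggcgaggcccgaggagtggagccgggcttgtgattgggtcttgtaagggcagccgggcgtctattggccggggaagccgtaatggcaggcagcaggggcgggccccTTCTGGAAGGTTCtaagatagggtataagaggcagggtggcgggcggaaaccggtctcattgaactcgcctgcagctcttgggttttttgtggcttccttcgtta

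Folding genes of the endoplasmic reticulum rose about as often as all genes. Of 23 measured, 4 rose (17.4%, against 17.3% of all genes) and 8 fell (34.8%, against 19.1%), with a median change of -0.05. HSPA5 (BiP), the main chaperone of that compartment, measured 10.24, 10.37, 10.31 and 10.32 in Dox500 and 9.40, 9.69, 9.59 and 9.56 in Dox1000, with no overlap and a change of -0.75 ± 0.09 (adjusted p = 1.0e-06). Calreticulin (CALR) fell by 0.48 and SDF2L1 by 0.47. The 4 members that rose were SEL1L by 0.61, EDEM1 by 0.52, DNAJB9 by 0.40 and XBP1 by 0.38.

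**Figure D3:**
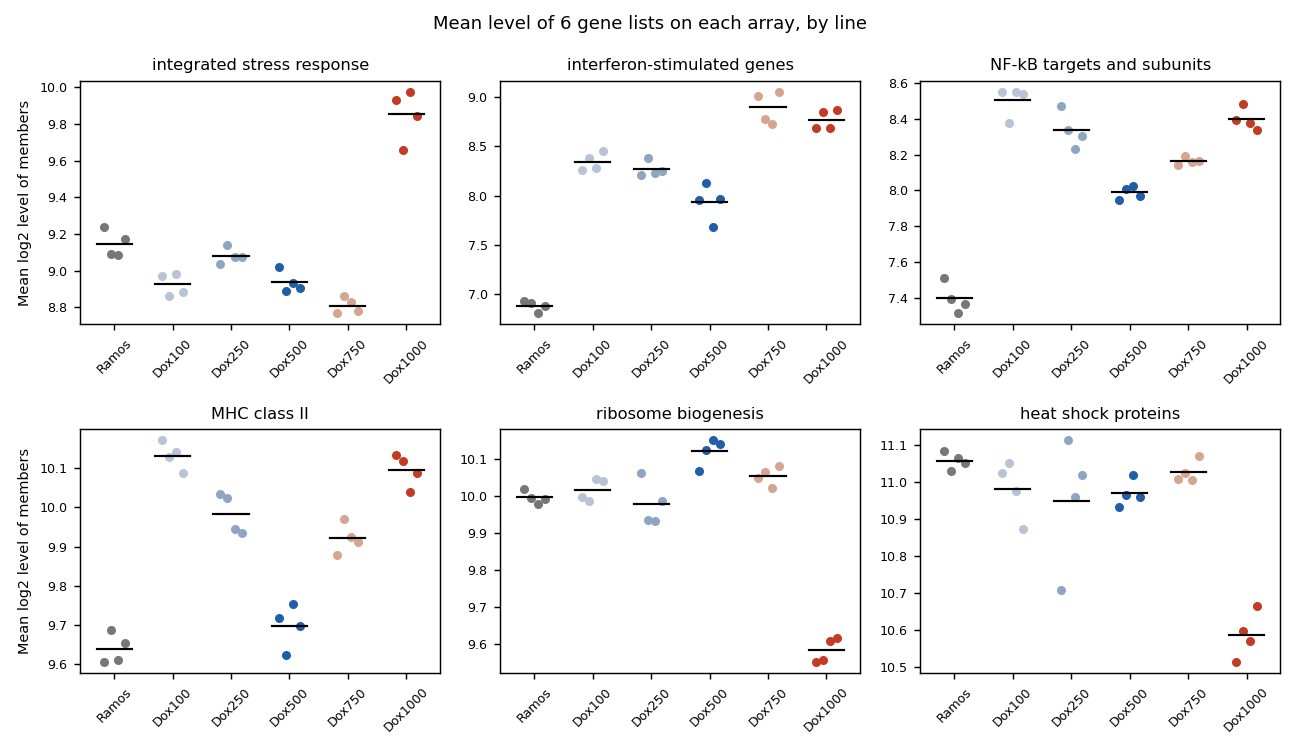
Mean log2 level of the measured members of 6 gene lists (vertical axis, a separate scale per panel) on each array of the 6 lines (points), with the line mean as a bar. Dox1000 stands apart from all other lines in the integrated stress response (9.85) and ribosome biogenesis (9.58) panels. In the heat shock panel Dox1000 is lowest (10.59), but its highest array (10.66) lies close to Dox250 replicate 1 (10.71). In the interferon-stimulated panel Dox750 (8.89) is as high as Dox1000 (8.77).

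Drug transport and drug target genes changed by less than 1 outside ABCB4. Among 21 ABC transporters and the vault protein genes, 7 rose (33.3%, against 17.3% of all genes) and 5 fell (23.8%, against 19.1%). In the ABCB, ABCC and ABCG groups without ABCB1, 9 were measured, of which 4 rose and 1 fell (median 0.13). ABCG1, a cholesterol exporter, rose by 0.71 and MVP, the major vault protein, by 0.42 ± 0.15. ABCC4, an anionic drug exporter, fell by 0.43, and ABCF3, which lies outside these groups, by 0.65. TOP2A (0.17) and TOP2B (0.10), the doxorubicin targets, did not pass. TOP1, topoisomerase I, fell by 0.47 ± 0.10. The aldehyde dehydrogenases ALDH1A1 and ALDH2 rose by 0.95 ± 0.10 and 0.82. Of 31 glutathione and NRF2 target genes, 8 rose (25.8%, against 17.3% of all genes) and 5 fell (16.1%, against 19.1%). MGST3 changed by 0.60 and GPX1 by -0.43.

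Genes around ABCB1 on chromosome 7q21 were uneven. Leaving out ABCB1 and ABCB4, 7 of 17 measured neighbours rose and 2 fell (median 0.24), with SAMD9L, an interferon-inducible antiviral gene, undetected in Dox500 and at least 2.02-fold higher. SLC25A40 rose by 0.58 and CDK6 by 0.53, STEAP1, still above background on 2 of the 4 Dox1000 arrays, fell by 0.71, and DBF4 (0.00) and CROT (-0.19) did not pass. By chromosome, the share of genes that rose ran highest on chromosome 6, with 130 of 490 (26.5%), and the share that fell highest on 16 and 17 (26.6% each) and 22 (25.7%). Over all genes these shares were 17.3% and 19.1%. In the order of RefSeq genes on GRCh38.p14, the run of 15 neighbouring genes with the highest median lay on chromosome 6 from VARS2 to AIF1, in the MHC, where 9 rose and 1 fell (median 0.43). A run on chromosome 17 from MYO1C to RAP1GAP2 had 12 of 15 fall (median -0.43). These were the extremes among 8799 overlapping runs.

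Survival, cell cycle and DNA damage genes showed mostly small changes. BCL2, the anti-apoptotic founder of its family, measured 6.22, 6.54, 6.19 and 5.94 in Dox500 and 7.32, 7.02, 7.01 and 6.92 in Dox1000, with no overlap and a change of 0.84 ± 0.16. MCL1 (0.23) and BCL2L1 (0.18) did not pass. PMAIP1 (NOXA), a pro-apoptotic BH3-only gene, rose by 0.98, and BIK, another, fell by 0.69. Of 22 p53 targets 7 rose (31.8%, against 17.3% of all genes) and 3 fell (13.6%, against 19.1%). TP53INP1 rose by the most at 1.13 and CDKN1A (p21) by 0.55.

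Of 40 DNA replication genes 13 fell (32.5%, against 19.1% of all genes) and 1 rose (2.5%, against 17.3%), with a median change of -0.16. POLD1, the catalytic subunit of DNA polymerase delta, fell by 0.52. Of 40 mitosis genes 10 rose (25%, against 17.3% of all genes) and 4 fell (10%, against 19.1%). MKI67 fell by 0.58 and the kinetochore gene NDC80 rose by 0.49. Of 26 genes of double-strand break repair, 7 fell (26.9%, against 19.1% of all genes) and 1 rose (3.85%, against 17.3%). The histone H2AX fell by 0.59, and the checkpoint kinase CHEK2 rose by 0.51. Oxidative phosphorylation genes were nearly level, with 2 of 53 rising (3.77%, against 17.3% of all genes), 7 falling (13.2%, against 19.1%) and a median change of -0.01.

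**Figure D4:**
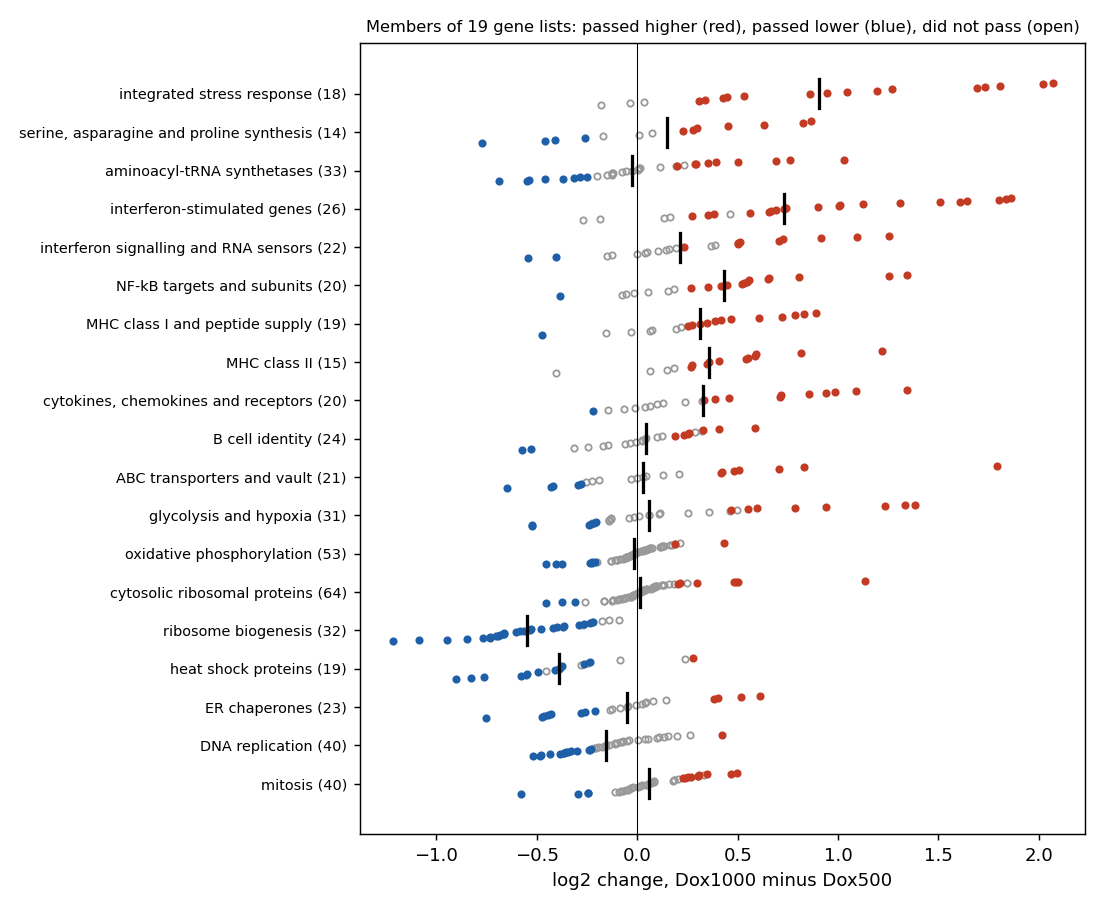
Log2 change, Dox1000 minus Dox500 (horizontal axis), of each measured member of 19 gene lists (the number measured in brackets), with genes that rose in red, genes that fell in blue, genes that did not pass open, and the list median as a bar. The lists differ in direction, from a median of 0.90 for the integrated stress response to -0.55 for ribosome biogenesis, while ribosomal proteins and oxidative phosphorylation centre near 0.

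Glycolysis and hypoxia-linked genes were near the background as a list: of 31 measured, 8 rose (25.8%, against 17.3% of all genes) and 6 fell (19.4%, against 19.1%). The members with the largest rises are named. ALDOC rose by 1.38, PFKFB4, a regulator of glycolytic flux, by 1.33 ± 0.28, the glucose carrier SLC2A3 by 1.23 and adrenomedullin (ADM) by 0.94. PFKFB4 was uneven within Dox1000, at 9.96, 9.72, 8.89 and 8.71, against 8.05, 8.11, 7.88 and 7.91 in Dox500. ALDOC split the same way, with 11.13 and 11.05 on replicates 1 and 2 and 10.29 and 10.19 on replicates 3 and 4. Of the 16 enzymes of glycolysis in the list, 1 rose and 5 fell, HK2 and PKM each by 0.52.

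B cell and lymphoid genes showed some single large steps. LMO2, a germinal centre factor, measured 7.64, 7.73, 7.77 and 7.70 in Dox500 and 9.15, 9.03, 9.23 and 9.42 in Dox1000, a change of 1.5 ± 0.10 with no overlap, and LMO2 averaged between 7.5 and 7.85 in the other 4 lines. The integrin chain ITGB2 rose by 1.12, LAT2, an adaptor of antigen receptors, by 0.94, the BAFF receptor TNFRSF13C by 0.82 and the hyaluronan receptor CD44 by 0.83, the last pair detected on 1 and 2 of 4 Dox500 arrays. POU2F2 (OCT2) fell by 0.57 and TCF3 (E2A) by 0.53. Across 24 B cell identity genes, 7 rose (29.2%, against 17.3% of all genes) and 2 fell (8.33%, against 19.1%), with a median change of 0.04.

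Detection calls marked 69 genes as present in only 1 of the lines, several of them described above. By detection on 4 of 4 arrays of one line and, with every probe, on 0 of 4 of the other, 60 genes were present in Dox1000 only, 59 of which passed, and 9 in Dox500 only, all of which passed. The Dox1000 set was read on arrays that detected more probes, as given above. Of the 60, 48 were undetected on all 4 Ramos arrays by the probe read, without regard to their other probes. They held NLRP13, an NLR family gene, at least 1.92-fold higher, SIRPG, a T cell surface receptor, at least 2.54-fold, CEACAM1, an inhibitory adhesion receptor, at least 2.02-fold, and the scaffold SH3PXD2A at least 2.38-fold. NOL9, a kinase of rRNA processing, was among the 9 lost, at least 1.83-fold lower, as was HOPX, a homeodomain-only protein, at least 1.35-fold lower. Both counts rest on the threshold: at a detection p-value under 0.05 they were 37 and 5, and leaving out 1 array, which asks 3 of 3 in that line, gave 68 to 88 and 11 to 20.

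**Figure D5:**
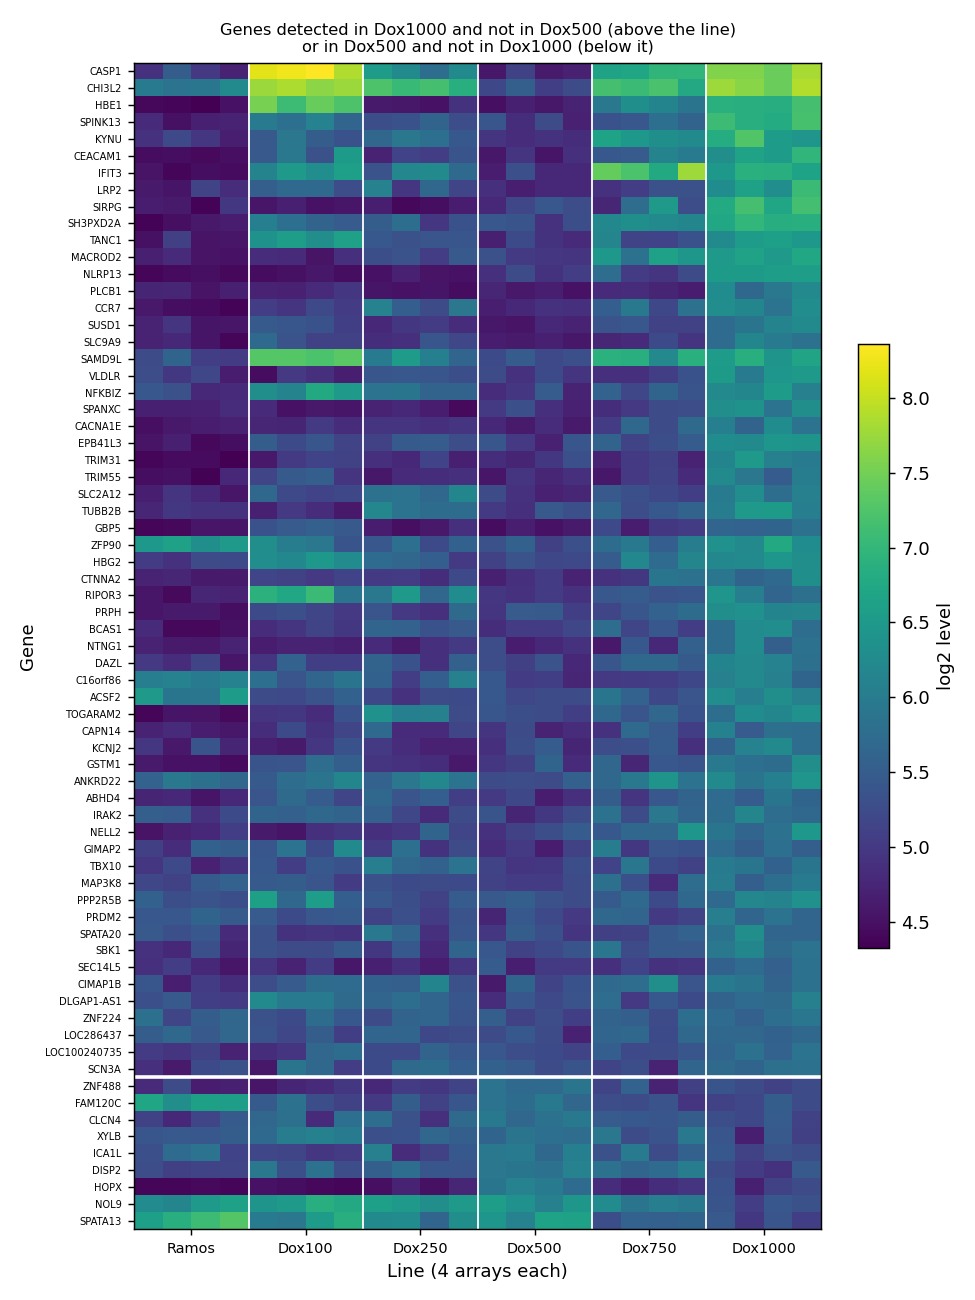
Log2 level (colour) on each of the 24 arrays (columns, 4 per line) of the 60 genes detected in Dox1000 and not in Dox500 (above the white line, ordered by change) and of the 9 genes with the reverse (below it). Several genes near the top, such as CASP1, CHI3L2 and HBE1, are also bright in Dox100 (8.17, 7.75 and 7.31) and dark in Dox500.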

How the data were processed

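Biotin-labelled RNA of 24 cultures was read on Illumina bead arrays, each culture on its own array, per the labels' protocols. The deposited intensity values are mean bead signals per probe, neither background-corrected nor normalized, per the file headers and the values. The detection p-values beside them were deposited by the authors for each probe and array. The authors' deposited log2 table matched log2 of the quantile-normalized signals without background correction (highest difference 0.0051, 24 of 24 columns best correlated with their own array, column medians 7.26), and the tool lumi was used, per the submitters' processing notes. Neither scanner software nor genome build is given in the sources used here. Array medians ran from 121.1 to 163.4, and the number of arrays limits the precision.

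Background was corrected with limma nec (offset 16, negative controls inferred from the detection p-values), arrays were quantile-normalized over all 24 and taken to log2. Limma 3.58.1 in R 4.3.3 fitted 1 mean per line (18 residual and 4.18 prior degrees of freedom), with Benjamini-Hochberg adjustment over the 14847 kept probes, 2961 of which lack a single symbol and stay unnamed. Where a gene had several kept probes (2294 genes), the brightest was read. For 88 genes that passed, the kept probes differed in sign. Where none of a gene's probes was detected on any array of a line, "at least N-fold" is a bound: the mean of the brighter line over a floor, the floor being averaged over the dim arrays from each array's lowest detected signal or the probe's own value, whichever was higher. Of the 161 genes that rose 2-fold, 35 had none of their probes detected on any Dox500 array, and 10 of these reach 2-fold by their bound. Genes such as FEZ1, whose read probe alone was undetected there, are not in the 35. Promoter sequences came from RefSeq. Motif shares of the lists count measured members whether or not they passed, so they describe the lists and do not test the comparison.

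Members, gene lists and the rule for named genes were chosen with earlier results of these data known. The rule took the 15 highest and 15 lowest changes without overlap between lines, up to 4 members per list, a set of drug, B cell and stress genes, and the brightest genes detected in 1 line. Other list members were named after their values were seen. Same-numbered arrays of the lines did not deviate together (correlations 0.05, 0.09, -0.015 and 0.0032), so the numbers were not used as pairs.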

Additional observations from a re-analysis of the deposited data

Results flagged for a closer look

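In 404 groups of 4 arrays (each named gene, the median signal and the number of detected probes, in each line), 15 had 1 array standing far from the other 3 by Dixon's test, and chance alone gives about 1 in 20. In Dox1000 these were replicate 4 for HBE1 (7.17), replicate 2 for INHBE (10.9) and replicate 3 for SLC6A9 (8.51). In Dox500, replicate 1 stood apart for ADM (8.96), ATP5MC3 (7.25) and TCF3 (12.1). Replicate 2 stood apart for POP1 (8.57) and SARS1 (10.3), and replicate 3 for CREB3L2 (10.6), LTB (11.9), MTHFD2 (11.4) and SLAMF7 (6.14). Replicate 4 stood apart for ABCG1 (9.36), BIRC6 (8.36) and SLC43A2 (8.25). The calls of these genes without each array are among the alternatives below.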

How the results depend on the processing

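As a description, since the pair was chosen for it, the ABCB1 difference ran from 0.01 with median scaling to 0.04 and, with 1 array left out, from -0.0032 (without Dox1000 replicate 3) to 0.091. The 3330 genes that passed were 2124 at an adjusted p under 0.01. With 1 array left out they were 2767 to 3129, with 1315 to 1462 rising and 1443 to 1668 falling. Median scaling gave 2874, with 1625 rising and 1249 falling, so more rose than fell, the reverse of the main setting. Without the detection filter 2468 passed, with 1230 rising and 1238 falling. Leaving out an array also asks for detection on all 3 remaining ones. Of 176 genes past 2-fold, 35 were left without background correction and with the authors' deposited values (35 rose and 0 fell in both), 113 (102 rose) among probes detected on all 8 arrays, which tests fewer genes, and 90 (86 rose and 4 fell) at an offset of 50. With 1 array left out they were 171 to 193, of which 154 to 170 rose and 15 to 23 fell. With 1 array left out, 15 integrated stress response members rose each time and 19 to 21 interferon-stimulated genes, while 24 to 28 ribosome biogenesis and 11 to 13 heat shock members fell (9 under median scaling). Genes detected in only 1 line moved from 60 to 37 (Dox1000) and from 9 to 5 (Dox500) at a detection p under 0.05, and to 68 to 88 and 11 to 20 with 1 array left out. With the replicate block 3202 genes passed and 176 were past 2-fold. Of 3734 values of 199 single genes under the alternatives, 3627 kept direction and call, 91 lost the call, 13 gained it and 3 turned sign: CD79A to -0.079 as a mean over probes, and MS4A1 without Dox500 replicate 1 and without Dox1000 replicate 4 (range with 1 array left out -0.059 to 0.072), none of which passed. Arrays carry no count of molecules, so low signals near background limit what can be measured.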

Other observations

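Other genes that rose 2-fold, chosen here after their values were seen, included several with known roles in lymphoid cells or virus defence. TSC22D3 (GILZ), a glucocorticoid-induced leucine zipper protein, measured 8.83, 8.71, 8.91 and 8.70 in Dox500 and 10.91, 10.18, 10.65 and 10.69 in Dox1000, a change of 1.82 ± 0.11 with no overlap. The cytidine deaminases APOBEC3G and APOBEC3B rose by 1.28 and 1.27. CD70, a ligand of CD27, rose by 1.21, ULBP1, a ligand of the NKG2D receptor, by 1.49, and TIMD4, a phosphatidylserine receptor, by 1.49. CASP4, a caspase near CASP1 on chromosome 11, rose by 1.09. CDKN1B (p27), an inhibitor of cyclin-dependent kinases, rose by 1.34.

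Some genes that mark other lineages or the germ line were also higher. SPANXA2, of a sperm protein family on chromosome X with near-identical copies that a probe may not separate, rose by 1.87 ± 0.13. HBG2, a fetal globin, was undetected in Dox500 and at least 1.62-fold higher, and DAZL, a germ cell RNA-binding protein, at least 1.38-fold higher. EGFR, the epidermal growth factor receptor, rose by 1.07. SNTB1, a syntrophin, stood at 7.91 in Ramos, 5.98 in Dox500 and 7.75 in Dox1000.

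Some genes whose level in Ramos lay far from that of the resistant lines were also uneven between Dox500 and Dox1000. FABP6, a bile acid binding protein, rose by 0.84 ± 0.09 from a mean of 10.09, having stood at 4.48 in Ramos. The calcium-binding protein S100A4 rose by 0.85 ± 0.08, from 11.78 to 12.63, against 5.82 in Ramos. NLRP11 rose by 0.59 ± 0.10 and NLRP7, which stood at 11.11 in Ramos, by 0.58 ± 0.13. HAVCR2 (TIM-3) changed by 0.11 ± 0.10 and did not pass. ZDHHC8, at 11.99 in Ramos, fell by 0.54 ± 0.16 to a mean of 5.68.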
